A study of Mus musculus with 9 samples.

Results

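This account follows 33 macrophage genes through RNAseq of 9 cultures of mouse embryonic fibroblasts (MEFs), out of the 43629 genes that the count table lists. The genes were chosen from a reading of their levels in these same 9 cultures, where most of them are high in some cultures and low in others. Their levels, their common pattern and their fold changes are therefore given as a description, and no test on them is read as support for the choice. All 33 genes were found in the table. Of these, 31 passed the filter on low counts for the genotype comparison, while *Lyz1* and *Clec7a* did not.

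The cultures came from 4 wild-type (WT) and 5 Dp1Tyb embryos at E14.5, each embryo giving one culture. Dp1Tyb embryos carry Dp(16Lipi-Zbtb21)1TybEmcf, an extra copy of the part of mouse chromosome 16 that is orthologous to human chromosome 21, and serve as a model of Down syndrome. The WT embryos were littermates, and the strain label of all cultures is C57BL/6J.129P2. Embryos were decapitated, their internal organs were removed, and the remainder was dissociated with trypsin and grown for 2 passages in DMEM with serum and 2-mercaptoethanol, and no step that selects fibroblasts or removes blood cells is described. Each culture also carries a set and a number in its label. WT replicate 1 (number 8) and Dp1Tyb replicate 1 (number 6) belong to set 1. Set 2 holds WT replicates 2, 3 and 4 (numbers 1, 3 and 7) and Dp1Tyb replicates 2, 3, 4 and 5 (numbers 6, 8, 9 and 10). The labels do not say what set and number stand for.

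Total counts ran from 25571442 to 30009361 in WT and from 24804539 to 26782380 in Dp1Tyb cultures. The fibroblast label was borne out by its markers. The collagen gene *Col1a1* was at 7922 to 16900 CPM (counts scaled to a library of 1000000), *Fn1*, for fibronectin, at 12480 to 23710 CPM, and all 10 fibroblast markers together made up 3.96% to 6.61% of the counts. In the genotype comparison, 22 of 89 tested genes of the duplicated region were called higher in Dp1Tyb (edgeR, adjusted p below 0.05). Of the 89, 83 had a log2 fold change above 0, and the median was 0.58. No macrophage gene lies in that region. *Xist*, transcribed from the inactive X chromosome, was at 634 to 1077 CPM in WT replicates 1 and 4 and Dp1Tyb replicate 5. The Y-linked *Ddx3y* was at 71.7 to 100.4 CPM in WT replicates 2 and 3 and Dp1Tyb replicates 1, 2 and 3. In Dp1Tyb replicate 4 both were low, at 3.92 CPM for *Xist* and 0.50 CPM for *Ddx3y*. Dp1Tyb replicate 2 and WT replicate 1 stood apart over all genes. Of the 14567 genes tested, 27.1% were highest and 27.0% lowest in the former, and 24.9% highest and 23.2% lowest in the latter.

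Macrophages are phagocytes that settle in nearly every tissue of the embryo, first from yolk sac and then from fetal liver progenitors. They depend on the receptor CSF1R and its ligands CSF1 and IL-34, which stromal cells such as fibroblasts make, and their identity rests on the transcription factor PU.1, encoded by *Spi1*. Their surface carries Fc receptors that signal through small adaptors, scavenger and pattern receptors and integrins. They also secrete lysozyme and C1q, and a membrane oxidase kills what they engulf. MEF preparations start from whole embryonic tissue, so resident macrophages are among the cells that can be carried into culture.

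PU.1 binds a purine-rich core, written here as GAGGAA on one strand and TTCCTC on the other. RefSeq promoter windows (GRCm38.p6, 250 bases before to 50 bases after the transcript start) were given for 24 of the 33 genes. The core was found on either strand in 16 of the 24 (66.7%), and in 8446 of 27025 genes with a window (31.3%). A match to 6 letters is a description of the sequence and not evidence of binding. The 120 bases just before the start are given 5' to 3' on the strand of the gene, with matches in capitals. To show where the letters lie, this is done for 6 genes of several roles. They are followed by *Lyz2*, the member with the most RNA, whose window holds no match.
*C1qb*, chr4:136886201-136886320, minus strand: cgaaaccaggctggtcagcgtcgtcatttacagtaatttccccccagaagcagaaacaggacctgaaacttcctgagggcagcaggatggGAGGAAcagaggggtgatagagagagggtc
*Laptm5*, chr4:130913196-130913315, plus strand: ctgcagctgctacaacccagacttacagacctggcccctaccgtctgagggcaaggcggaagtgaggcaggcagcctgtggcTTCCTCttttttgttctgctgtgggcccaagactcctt
*Trem2*, chr17:48346281-48346400, plus strand: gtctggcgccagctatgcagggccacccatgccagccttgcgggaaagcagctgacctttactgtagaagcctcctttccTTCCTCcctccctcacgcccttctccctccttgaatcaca
*Itgam*, chr7:128062520-128062639, plus strand: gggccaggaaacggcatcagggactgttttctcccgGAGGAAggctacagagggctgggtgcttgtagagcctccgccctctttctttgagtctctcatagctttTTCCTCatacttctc
*Fcgr1*, chr3:96293970-96294089, minus strand: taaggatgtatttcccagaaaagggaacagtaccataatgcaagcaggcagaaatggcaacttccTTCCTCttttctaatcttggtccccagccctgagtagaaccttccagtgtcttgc
*Cd53*, chr3:106790150-106790269, minus strand: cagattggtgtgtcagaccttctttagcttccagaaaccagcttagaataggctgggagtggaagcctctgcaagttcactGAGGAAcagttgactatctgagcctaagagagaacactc
*Lyz2*, chr10:117282273-117282392, minus strand: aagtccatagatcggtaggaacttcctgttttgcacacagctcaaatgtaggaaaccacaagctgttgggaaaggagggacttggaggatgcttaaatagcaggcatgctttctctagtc
The match lay 30 bases before the start in *C1qb*, 38 in *Laptm5*, 39 in *Cd53*, 40 in *Trem2* and 55 in *Fcgr1*, counted to its base farthest from the start. *Itgam* had matches at 84 and at 15 bases. Besides *Lyz2*, the windows of *Cx3cr1*, *Fcer1g*, *Fcgr2b*, *Lcp1*, *Lyz1*, *Mpeg1* and *Ncf1* held none.

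All of the genes but *Lyz1*, *Fcgr1* and *Aif1* had counts in all 9 cultures, at levels that differed widely from culture to culture. The summed level of the 33 genes, in CPM scaled by edgeR's TMM factors, was 264, 130.1, 230.1 and 479 in WT replicates 1 to 4. In Dp1Tyb replicates 1 to 5 it was 47.1, 39.8, 734, 299 and 564. Dp1Tyb cultures thus held both the lowest pair of values and the highest pair, and the WT values lay between them. The highest sum was 18.5 times the lowest, and 15.6 times without Dp1Tyb replicate 2. As shares of all counts, the extremes were 0.00382% in Dp1Tyb replicate 2 (95% exact binomial interval 0.00359% to 0.00407%) and 0.073% in Dp1Tyb replicate 3 (0.072% to 0.074%). Such intervals, and the floor of 3 counts used further on, reflect counting error alone, as copies made by PCR were not told apart. In bulk RNA, fewer macrophages and less RNA per macrophage cannot be told apart.

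**Figure D1:**
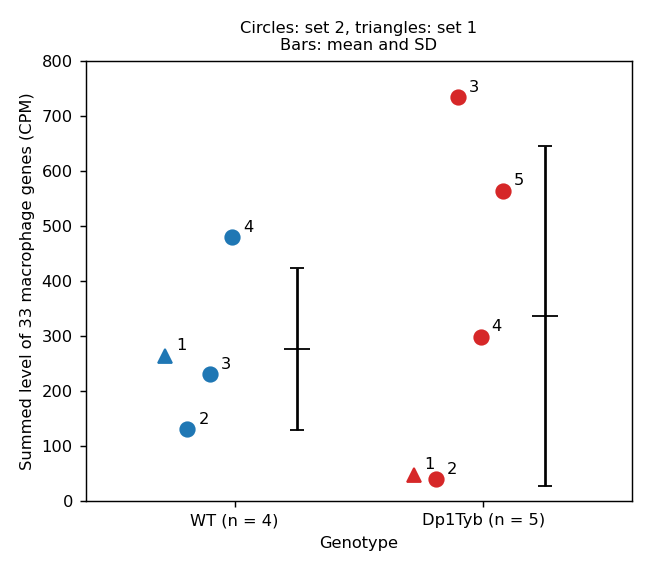
Summed level of the 33 macrophage genes (CPM, vertical axis) in each culture, by genotype (horizontal axis), with circles for set 2, triangles for set 1, numbers for replicates, and bars for mean and SD. WT cultures lie between 130.1 and 479 CPM, and Dp1Tyb cultures between 39.8 and 734 CPM.

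The sum averaged 276 ± 147 CPM in WT (SD, n = 4) and 337 ± 309 CPM in Dp1Tyb (SD, n = 5). The difference of 60.8 CPM was smaller than the SD of either genotype, and without Dp1Tyb replicate 3 it became -38.6 CPM. Within set 2 the difference was 129 CPM, and in set 1, with 1 culture of each genotype, the WT culture had 264 and the Dp1Tyb culture 47.1 CPM. When the cultures are read by number instead, those numbered 7 to 10 had sums of 264 to 734 CPM in both sets, and those numbered 1, 3 and 6 had 39.8 to 230.1 CPM. The cultures numbered 6 in each set, Dp1Tyb replicates 1 and 2, were the lowest of all. This ordering was seen in the same values that chose the genes and was not tested.

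*Csf1r*, the receptor for CSF1 and IL-34, was at 12.6, 4.59, 7.47 and 17.1 CPM in WT replicates 1 to 4, and at 1.35, 1.43, 23.8, 11.3 and 19.0 CPM in Dp1Tyb replicates 1 to 5. *Spi1* was at 1.48, 0.39, 1.27 and 2.54 CPM in WT and at 0.037, 0.20, 4.31, 1.54 and 2.58 CPM in Dp1Tyb cultures. Both genes therefore stood lowest in Dp1Tyb replicates 1 and 2 and highest in Dp1Tyb replicate 3, and the genotypes overlapped. For *Csf1r* the highest level was 17.6 times the lowest. *Spi1* is too low in Dp1Tyb replicate 1, with 1 count, for a ratio.

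The leukocyte surface proteins followed the same order with 1 exception. *Ptprc*, which encodes the pan-leukocyte phosphatase CD45, ran from 0.37 CPM in Dp1Tyb replicate 2 to 6.70 CPM in Dp1Tyb replicate 3. *Adgre1*, for the macrophage antigen F4/80, ran from 0.49 to 17.5 CPM between the same cultures, and *Cx3cr1*, the fractalkine receptor, from 0.25 to 10.1 CPM. *Cd52*, a small glycoprotein anchored in the leukocyte membrane, had 1 count in Dp1Tyb replicate 2 and reached 3.52 CPM in Dp1Tyb replicate 3.

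*Cd53*, a tetraspanin of leukocytes, behaved otherwise. It was at 3.08, 8.20, 6.16 and 8.15 CPM in WT replicates 1 to 4 and at 4.89, 8.80, 10.3, 7.46 and 11.6 CPM in Dp1Tyb replicates 1 to 5. Its lowest culture was WT replicate 1, and Dp1Tyb replicate 2, the lowest culture for most other members, had more of it than 6 of the others. Its highest level was 3.78 times its lowest. In consequence it made up 1.17% of the summed level in WT replicate 1 and 22.1% in Dp1Tyb replicate 2.

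Among the Fc receptors and their partners, *Tyrobp* and *Fcer1g* encode the adaptors (DAP12 and the Fc receptor gamma chain) through which many myeloid receptors signal. *Tyrobp* was at 4.56, 1.96, 4.51 and 8.83 CPM in WT and at 0.47, 0.25, 11.95, 4.42 and 8.01 CPM in Dp1Tyb cultures. *Fcer1g* ran from 0.45 to 15.0 CPM, and *Trem2*, a lipid receptor that pairs with DAP12, from 0.33 to 9.83 CPM. In these 3 genes the lowest culture was Dp1Tyb replicate 2 and the highest Dp1Tyb replicate 3. The activating receptor *Fcgr3* ran from 0.41 to 9.91 CPM. *Fcgr1*, the high-affinity IgG receptor, had no count in Dp1Tyb replicate 2 and was highest in Dp1Tyb replicate 5 at 2.43 CPM, at least 19.8-fold higher when the former is taken at a floor of 3 counts per library. *Fcgr2b*, the inhibitory IgG receptor, was also highest in Dp1Tyb replicate 5, at 2.81 CPM.

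The 3 chains of C1q, the recognition protein of the classical complement pathway, are encoded side by side on the minus strand of chromosome 4 (GRCm38), from *C1qb* at 136880129 to the end of *C1qa* at 136898803. *C1qb* was at 12.7, 5.73, 15.0 and 27.1 CPM in WT and at 1.86, 1.35, 43.8, 14.1 and 34.2 CPM in Dp1Tyb cultures. *C1qa* and *C1qc* kept the same lowest and highest cultures, with ranges of 0.70 to 36.3 CPM and 0.74 to 41.6 CPM. *Pf4*, a chemokine of platelets and of some tissue macrophages, was the one member with its highest level in a WT culture, replicate 4, at 1.63 CPM.

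Lysozyme gave the largest share of the RNA. *Lyz2*, the lysozyme gene of macrophages, was at 65.9, 38.3, 73.5 and 145 CPM in WT replicates 1 to 4 and at 12.9, 6.55, 199, 92.4 and 168 CPM in Dp1Tyb replicates 1 to 5. It made up 16.5% to 31.9% of the summed level of a culture. Its neighbour *Lyz1*, the lysozyme gene of Paneth cells in the gut, had 0 to 2 counts in each culture. Exonic windows of 100 bases were shared between them in 2.06% of *Lyz1* and 1.97% of *Lyz2* windows. Reads mapping to several places were discarded, but sequencing was paired-end, so a mate in unique sequence could still place such a read.

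In RPKM, which is CPM divided by the exon length in kilobases, the levels averaged over the 9 cultures were 67.7 for *Lyz2*, 15.9 for *C1qb*, 13.3 for *C1qa*, 11.1 for *Cd68* and 8.10 for *C1qc*. *Csf1r* averaged 1.90 RPKM and *Ptprc* 0.15 RPKM. *Col1a1* averaged 2096 RPKM, so that the strongest macrophage gene was far below the collagen. *Lyz2* stood lowest in Dp1Tyb replicate 2 and highest in Dp1Tyb replicate 3, as did most of the genes below.

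The other lysosomal members were the protease gene *Ctss*, *Cd68*, *Laptm5* and *Mpeg1*, the last of which encodes the pore-forming protein perforin-2. Among the genes above the floor of 3 counts in every culture, *Ctss* had the widest range. It ran from 0.25 CPM in Dp1Tyb replicate 2, which is only a few counts, to 25.2 CPM in Dp1Tyb replicate 3, or 102.7-fold. *Cd68* had one of the narrower ranges, from 4.09 to 31.8 CPM or 7.78-fold. *Mpeg1* reached 66.0 CPM and *Laptm5* 28.1 CPM, both in Dp1Tyb replicate 3.

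Of the pattern and scavenger receptors, *Cd14*, the co-receptor for lipopolysaccharide, was at 3.55, 3.41, 3.24 and 12.9 CPM in WT and at 1.497, 3.19, 14.52, 6.08 and 14.1 CPM in Dp1Tyb cultures. WT replicate 4 therefore stood well above the other 3 WT cultures. *Msr1*, a scavenger receptor, ran from 0.53 to 12.4 CPM and *Mrc1*, the mannose receptor, from 0.61 to 21.9 CPM. *Clec7a*, the beta-glucan receptor, had no more than 0.49 CPM in any culture.

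The integrin chains *Itgam* (CD11b) and *Itgb2* (CD18), which form complement receptor 3, ran from 0.37 to 10.4 CPM and from 1.11 to 9.95 CPM. The oxidase subunits *Cybb* and *Ncf1* reached 8.43 and 6.77 CPM. *Lcp1*, for the actin-bundling protein L-plastin, ran from 2.46 to 47.6 CPM. *Aif1*, for the calcium-binding protein IBA1, had no count in Dp1Tyb replicate 2 and was at 1.82 CPM in Dp1Tyb replicate 3. All 6 genes were lowest in Dp1Tyb replicate 2 and highest in Dp1Tyb replicate 3.

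**Figure D2:**
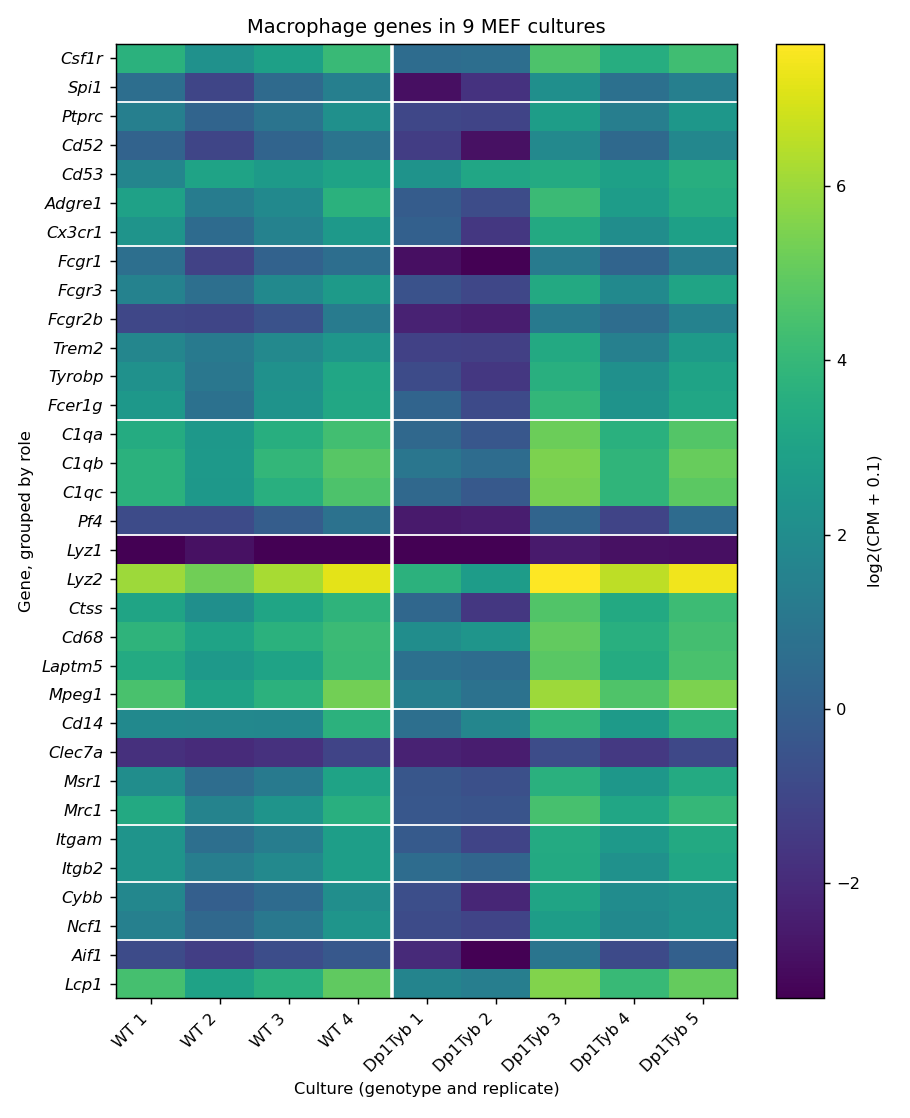
Level of each of the 33 genes (rows, grouped by role between white lines) in each culture (columns, WT left and Dp1Tyb right of the thick line), as log2(CPM + 0.1) on the colour scale. Dp1Tyb replicates 1 and 2 form dark columns and Dp1Tyb replicate 3 the brightest, while *Cd53* is of nearly even colour across its row.

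Counted over the 31 tested genes, the highest culture was Dp1Tyb replicate 3 for 27, Dp1Tyb replicate 5 for 3 and WT replicate 4 for 1. Dp1Tyb replicate 3 was the highest culture for 10.0% of all genes tested. The lowest was Dp1Tyb replicate 2 for 25, Dp1Tyb replicate 1 for 5 and WT replicate 1 for 1, while Dp1Tyb replicate 2 was lowest for 27.0% of all genes tested. With Dp1Tyb replicate 2 and WT replicate 1 left out, Dp1Tyb replicate 3 was still the highest for 27 (16.8% of genes tested) and Dp1Tyb replicate 1 was the lowest for 31 (17.6%). Dp1Tyb replicates 1 and 2 were the 2 lowest cultures for 30 of the 31, with *Cd53* as the exception, against 4.89% of the 14567 genes tested. Both patterns together held for 27 of 31 genes and for 1.99% of the genes tested. The 3 highest cultures were Dp1Tyb replicates 3 and 5 and WT replicate 4 for 29, against 2.6% of the genes tested. The exceptions were *Cd53* and *Fcgr1*. Since the genes were chosen for moving together in these cultures, such counts describe the choice.

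The spread of each gene over the cultures was taken as the SD of log2(CPM + 0.1) over all 9. Its median was 1.58 over the 31 genes and 0.22 over all genes tested. It was above 1 for 29 of the 31 (all but *Cd53* and *Cd68*), and for 413 (2.84%) of the 14567 genes tested. Without WT replicate 1 and Dp1Tyb replicate 2 the median was 1.39 over the 31 genes and 0.16 over all genes tested, and 28 of the 31 were above 1, against 1.60% of the genes tested. The spread ran from 0.58 for *Cd53* to 1.99 for *Ctss*.

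**Figure D3:**
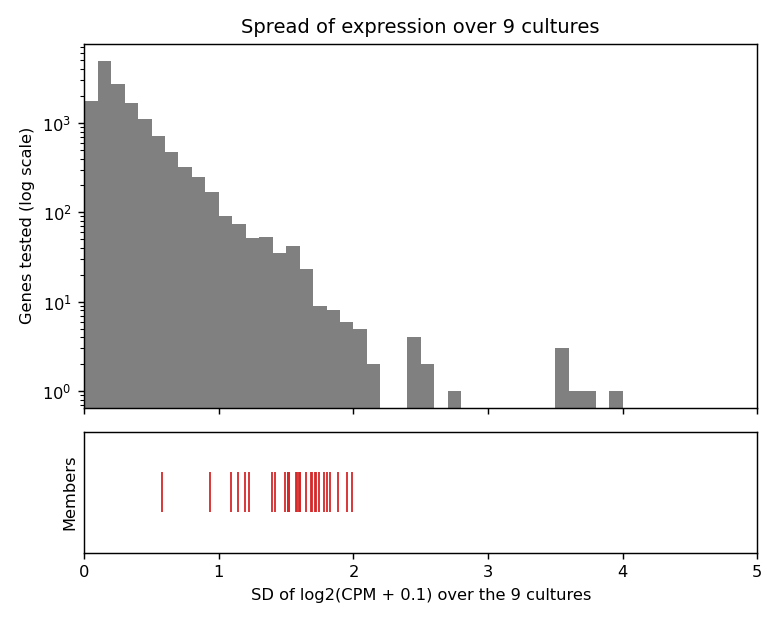
SD of log2(CPM + 0.1) over the 9 cultures (horizontal axis) for all 14567 genes tested (grey bars, number of genes on a log scale) and for the 31 macrophage genes tested (red ticks). The median is 0.22 for all genes tested and 1.58 for the macrophage genes, whose ticks run from 0.58 to 1.99.

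Relative to each other, the genes varied much less. The log2 ratio of each gene to the sum of the other members had a median SD of 0.38, compared with 1.58 for the level itself, and was less variable than the level for 30 of 31 genes. *Laptm5*, at 0.12, *Fcgr3*, at 0.16, and *Ptprc*, at 0.17, kept the steadiest ratio. *Cd53*, at 1.54, was the exception, and *Cd14* (0.80), *Cd68* (0.67) and *Ctss* (0.66) came next. The points share libraries and the choice of genes, so these values are descriptive.

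In the comparison of Dp1Tyb with WT (edgeR quasi-likelihood test across 14567 genes), none of the 31 genes was called. At an adjusted p below 0.05, 0.165% of the genes tested were called (24 genes, all higher in Dp1Tyb). None of the 31 had an unadjusted p below 0.05 either, DESeq2, which called 0.332% of genes, also called none, and the adjusted p was 0.9997 for each in edgeR. These genes had been chosen with this contrast in view, so nothing is read from the count. The log2 fold changes ran from -0.55 for *Pf4* to 0.67 for *Cd52*, with a median of 0.31, and standard errors were between 0.32 and 0.98. Over all genes tested, the median was 0.00.

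*Csf1r* was estimated at 0.12 ± 0.80 (log2 fold change with its standard error), *Lyz2* at 0.25 ± 0.86, *C1qb* at 0.33 ± 0.91 and *Tyrobp* at 0.02 ± 0.90. For these 4 genes, the error was larger than the estimate. *Cd53*, the least variable member, had 0.43 ± 0.32. Although 30 of the 31 estimates lay above 0, only 6 did without Dp1Tyb replicate 3, when the median was -0.24. Only 18 did without WT replicate 2, and 22 without Dp1Tyb replicate 5. Without Dp1Tyb replicate 2 it was 30, with a median of 0.59, and without WT replicate 1 it was 29, with a median of 0.29. With set as a covariate 14 lay above 0, and within set 2 it was 30. For no gene were all levels of one genotype above all of the other, which held for 1.36% of genes tested.

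**Figure D4:**
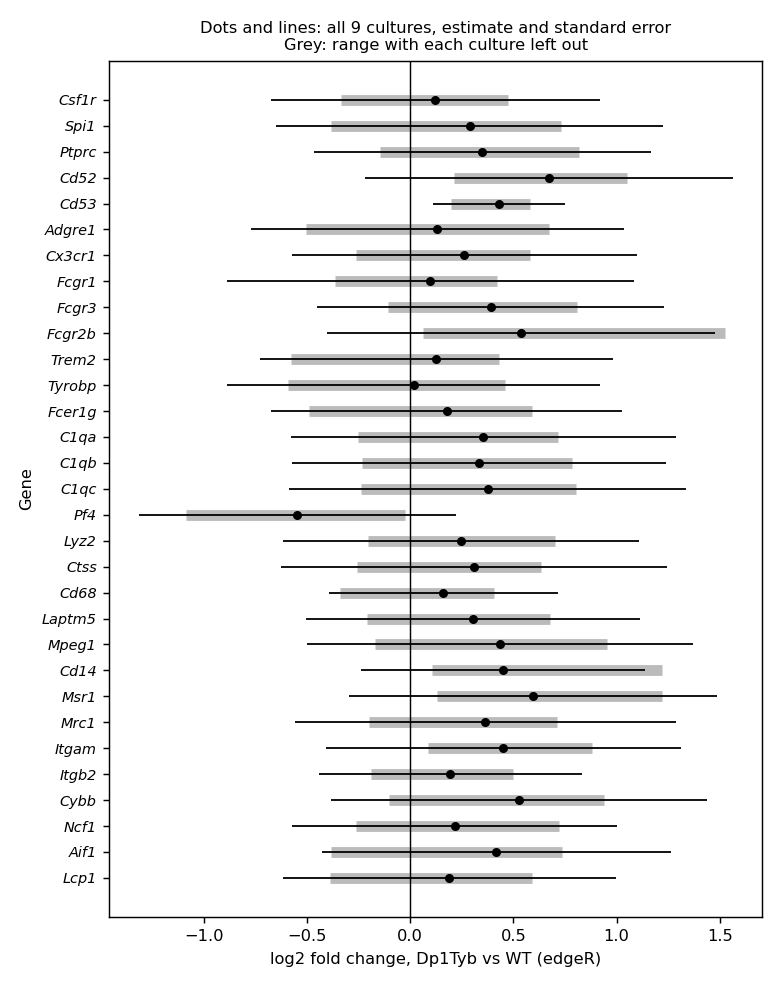
log2 fold change of Dp1Tyb vs WT (horizontal axis) for the 31 macrophage genes tested, with dots for the edgeR estimate, black lines for its standard error and grey bars for the range when each culture is left out in turn. The estimates run from -0.55 for *Pf4* to 0.67 for *Cd52*, and for most genes the grey bar crosses 0.

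Set 2 was also compared with set 1, with genotype as a covariate (edgeR, 15084 genes). The set fit called 0.133% of genes tested (20 genes), and none of the 32 members tested there. All 32 estimates lay above 0, from 0.59 for *Cx3cr1* to 2.32 for *Fcgr2b*, with a median of 1.14. Set 1 holds only 2 cultures. Without Dp1Tyb replicate 1 the median became 0.08, with 17 of 32 above 0, and without WT replicate 1 it became 3.23. *Cd53* alone had an unadjusted p below 0.05, with a log2 fold change of 1.12 ± 0.21 and an adjusted p of 0.105 in edgeR. DESeq2 called 3.31% of the genes in its set fit (464 of 14025) and 1 of 31 members, *Cd53*, with an adjusted p of 0.00017, so the members' share was near that of all genes.

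A wider list of 68 other macrophage and myeloid genes, 67 of them in the table and 57 tested, was read beside the members. None of the 57 was called between the genotypes, against 0.165% of all genes tested, and the median log2 fold change was 0.31. Dp1Tyb replicates 1 and 2 were the 2 lowest cultures for 39 of the 57, against 4.89% of all genes tested. Dp1Tyb replicate 3 was the highest for 42, against 10.0% of all genes tested. This list was also chosen with earlier results of these data known, so such counts are a description. *Cyba* and *Tmem119*, both among the 3 with the highest RPKM, did not share the wide range. *Cyba*, an oxidase subunit made in many cell types, was within 43.3 to 72.9 CPM and *Tmem119*, known from microglia and bone-forming cells, within 63.8 to 140.2 CPM.

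The ligands of these receptors were read from a list of 10 stromal products. Of these, 8 were tested and none was called, against 0.165% of all genes tested. *Csf1* was at 185, 333, 298 and 242 CPM in WT and at 241, 424, 242, 279 and 239 CPM in Dp1Tyb cultures. It was thus highest in Dp1Tyb replicate 2, where *Csf1r* was near its lowest. *Il34* ran from 1.73 to 3.81 CPM and *Cx3cl1*, the ligand of CX3CR1, from 11.3 to 20.6 CPM. The most abundant were *Gas6*, a bridge between dying cells and phagocytes, at 168 to 609 CPM, and the monocyte chemokines *Ccl7* and *Ccl2*, at 31.6 to 155 and 25.1 to 102.5 CPM. Dp1Tyb replicates 1 and 2 were the lowest pair for 0 of the 8, against 4.89% of all genes tested.

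A list of 15 activation genes had 8 tested and none called, against 0.165% of all genes tested. The median log2 fold change of the 8 was 0.87. *Ptgs2*, for the inducible cyclooxygenase, which fibroblasts also make, was highest in Dp1Tyb replicate 2 at 673 CPM and lowest in WT replicate 1 at 36.9 CPM. *Tnf* was at 0.50, 0.24, 0.58 and 13.7 CPM in WT replicates 1 to 4 and at 0.073, 0.41, 24.2, 7.17 and 15.3 CPM in Dp1Tyb replicates 1 to 5. The chemokine gene *Ccl3* was at 0.53, 0.31, 0.85 and 5.65 CPM in WT and at 0, 0.16, 11.1, 3.17 and 8.28 CPM in Dp1Tyb cultures. Both were high in WT replicate 4 and Dp1Tyb replicates 3, 4 and 5, and low in the other 5 cultures.

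*Tnf* and *Ccl3* were joined by *Il1a*, *Il1b*, *Ccl4*, *Cxcl2* and *Clec4e*, cytokine, chemokine and receptor genes of stimulated macrophages, which were added after their values were seen. The whole list of 15 activation genes, which includes *Ptgs2*, ran otherwise. It was highest in Dp1Tyb replicate 2, at 692 CPM, and next in WT replicate 2, at 440 CPM. How the 7 genes divide the cultures therefore describes their choice. The sum of the 7 was 2.14, 1.22, 3.51 and 40.5 CPM in WT and 0.58, 1.72, 64.2, 21.1 and 47.6 CPM in Dp1Tyb cultures. Set against the summed level of the 33 genes, it came to 0.81%, 0.93%, 1.52% and 8.46% in WT and to 1.24%, 4.32%, 8.74%, 7.07% and 8.44% in Dp1Tyb cultures. In Dp1Tyb replicate 2, *Cxcl2* alone gave 20.6 CPM per 1000 CPM of the 33 genes, its highest ratio of the 9 cultures. WT replicate 1 and Dp1Tyb replicate 4 had similar macrophage sums, 264 and 299 CPM, but inflammatory sums of 2.14 and 21.1 CPM. The 4 cultures with the largest inflammatory sums are those numbered 7 to 10 in set 2, and they include both genotypes. *Il1b* reached 6.21 CPM in WT replicate 4 and was at most 0.20 CPM in the 5 cultures with small sums.

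**Figure D5:**
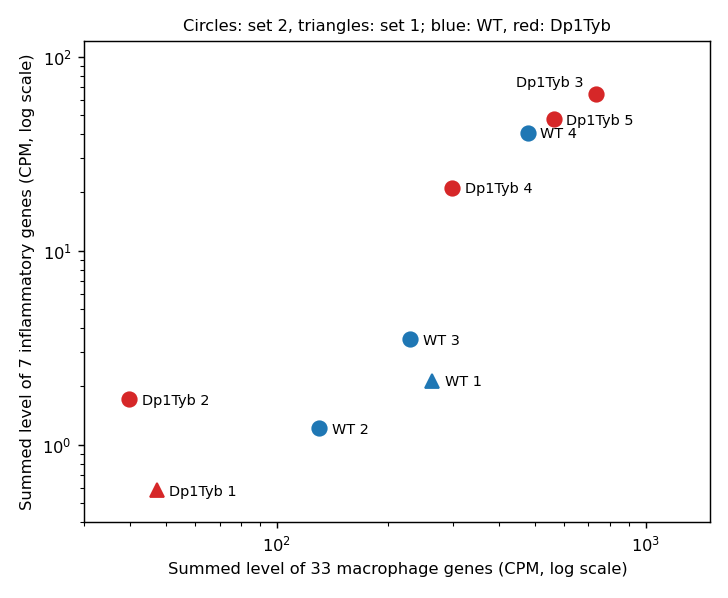
Summed level of 7 inflammatory genes (vertical axis) against that of the 33 macrophage genes (horizontal axis), both in CPM on log scales, for each culture, with blue for WT, red for Dp1Tyb, circles for set 2 and triangles for set 1. WT replicate 4 and Dp1Tyb replicates 3, 4 and 5 lie at 21.1 to 64.2 CPM on the vertical axis, and the other 5 cultures at 0.58 to 3.51 CPM. The 7 genes were chosen after their values were seen.

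Marker lists of other cell types were measured in the same way, and their part in the macrophage pattern was not tested. The 8 neutrophil markers summed to 0.031 to 0.25 CPM, the 9 erythroid markers to 0.19 to 0.49 CPM, and the 7 mast cell markers to 0.77 to 1.96 CPM. The 10 T and NK cell markers summed to 0.74 to 2.23 CPM and the 8 B cell markers to 0.62 to 2.53 CPM. The 7 megakaryocyte markers summed to 10.7 to 22.1 CPM, of which *Ppbp* gave up to 15.7 CPM, and 8 endothelial markers to 5.74 to 21.3 CPM. The 6 epithelial markers summed to 8.47 to 20.5 CPM, and the 6 osteoclast markers, led by *Ctsk*, to 152.5 to 322 CPM. The osteoclast sum was lowest in Dp1Tyb replicate 2 and highest in Dp1Tyb replicate 3, the same cultures as for the macrophage sum. Its range was 2.11-fold. Of the 3 osteoclast genes tested, Dp1Tyb replicate 3 was highest for 1, and Dp1Tyb replicates 1 and 2 were the lowest pair for 0. Of all 6 osteoclast genes, 3 had at most 27 counts over the cultures together. The B cell sum was lowest in Dp1Tyb replicate 1, with 17 counts, and highest in Dp1Tyb replicate 3, with 67 counts. The T and NK cell sum was lowest in Dp1Tyb replicate 2, with 18 counts, and highest in WT replicate 1, with 71 counts. The erythroid sum was highest in Dp1Tyb replicate 3, at 0.49 CPM (13 counts), against 0.46 CPM (11 counts) in Dp1Tyb replicate 4. The exact binomial intervals of the erythroid sums overlapped in all 9 cultures, so their order is not resolved. *Cd3e*, *Cd8a* and *Ncr1* of T and NK cells, *Gp9* of megakaryocytes and the globin genes *Hba-a1*, *Hbb-bs*, *Hbb-bt* and *Hbb-y* had no count in any culture. Of these lists and the fibroblast list, 27 genes were tested, none of them neutrophil or erythroid markers and 10 of them fibroblast markers. Dp1Tyb replicates 1 and 2 were the lowest pair for 0 of the 27, against 4.89% of all genes tested. The fibroblast sum was also lowest in Dp1Tyb replicate 2, at 41180 CPM, and highest in Dp1Tyb replicate 4, at 68270 CPM, a 1.66-fold range.

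Some counts carry a limit of assignment. The library kit was stranded, but whether counting used strand is not given in the sources used here. Exons of *Csf1r*, *Cd52*, *Fcgr2b*, *Ncf1* and *Lcp1* overlap exons of genes on the other strand (*Hmgxb3*, *Crybg2*, *Gm38204*, *Gtf2ird2*, and *Gm15628* with *Gm15629*). *Fcgr3* shared 2.54% of its 100-base windows with *Fcgr2b*. *Itgam* shared 64.3% with *Gm49368*, an overlapping gene model of the GENCODE M21 annotation that the count table does not list.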

How the data were processed

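RNA from 9 MEF cultures (4 WT, 5 Dp1Tyb), grouped by the genotype in the labels, was extracted with Trizol and sequenced from TruSeq stranded mRNA libraries. Per the submitters' processing notes and the paper, the authors trimmed reads with Trim Galore, mapped them to GRCm38 with TopHat2 2.0.12, discarded reads mapping to several places and deposited counts per Ensembl gene from HTSeq. The strand option and annotation release are not given in the sources used here. The deposited normalised table and the authors' DESeq2 1.6.3 table of their own comparison were not used, and 0 columns of the count table were left without a sample.

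Of 43629 genes, 42462 were matched to GENCODE M21 symbols. Levels are CPM on TMM-scaled library totals, and RPKM divides these by summed exon length. Where logs were taken, 0.1 CPM was added. Tests were edgeR 4.0.16 quasi-likelihood tests in R 4.3.3, two-sided, with edgeR's filter on low counts and Benjamini-Hochberg adjustment over all genes tested. They were also run on simulated counts with the same low dispersion for every gene, which does not cover genes as variable as the members. Standard errors are the estimate divided by the root of its F statistic. No p was computed over the 33 genes as a group. Python 3.11.15 with numpy 2.4.6, pandas 2.3.3, scipy 1.17.1 and matplotlib 3.10.9 was used.

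The members, their roles and all marker lists were chosen with earlier results of these data known. By rule, all members were named, and of each other list the genes called between genotypes or, where there were none, those 3 with the highest RPKM, together with *Csf1*, *Il34* and *Cx3cl1*. Genes printed outside this rule were chosen after their values were seen (*Il1a*, *Il1b*, *Ccl4*, *Cxcl2*, *Clec4e*, *Stab1*, *Ms4a7*). Some genes that the rule names are not reported here. Alternatives were DESeq2 1.42.0, its size factors in edgeR, no filter, a filter of 10 counts in every culture, set as a covariate, set 2 only, a replicate block, the sum without its 3 most abundant genes, and each culture left out in turn. Leaving out WT replicate 1 and Dp1Tyb replicate 2 from the spread and order of cultures was added after seeing the data. A floor of 3 counts per library was used, and p-values set a difference against the spread between these cultures.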

Additional observations from a re-analysis of the deposited data

Results flagged for a closer look

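Within each genotype, a culture standing far from the rest was looked for by Dixon's criterion in 116 groups of 4 or 5 values, and 10 were found. A rate of about 1 in 20 holds for independent groups of normal values. These groups overlap, were chosen with the data known, and some hold few counts, so no excess is read from the number found. Of the macrophage genes, *Fcgr2b*, *Cd14*, *Clec7a* and *Lyz1* had 1 WT culture apart from the other 3. It was WT replicate 4 at 2.27 CPM for *Fcgr2b*, at 12.9 CPM for *Cd14* and at 0.38 CPM for *Clec7a*. For *Lyz1* it was WT replicate 2, whose 0.039 CPM was 1 count where the other WT cultures had 0. WT replicate 4 also stood apart for the 7 inflammatory genes named after their values were seen, at 40.5 CPM. Among marker lists, T and NK cell markers were high in WT replicate 1 (2.23 CPM), mast cell markers in WT replicate 2 (1.96 CPM), and neutrophil markers in WT replicate 3 (0.19 CPM) and Dp1Tyb replicate 2 (0.25 CPM), the last 2 values being 5 and 6 counts. The activation genes summed to 692 CPM in Dp1Tyb replicate 2, of which *Ptgs2* gave 673 CPM.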

How the results depend on the processing

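The number of members called between genotypes was 0 in edgeR under all alternatives run, and 0 in DESeq2, and with set as a covariate *Cd53* alone had an unadjusted p below 0.05. The number of genes called was not stable. From 24 it became 67 with DESeq2 (48 up, 19 down), 1 within set 2 (437 at an unadjusted p below 0.05) and 2 to 26 with each culture left out. It was 15, 2, 2 and 8 without WT replicates 1 to 4, and 14, 14, 9 and 3 without Dp1Tyb replicates 1, 3, 4 and 5. The replicate block gave 0 genes (800 at an unadjusted p below 0.05), with 1 of 31 members above 0. Replicate numbers were not taken as pairs, since deviations of same-numbered cultures correlated at 0.26, 0.74, 0.03 and 0.38, and WT replicate 4 correlated best with Dp1Tyb replicate 5 (0.49). The summed level differed by 60.8 CPM, 51.6 CPM without TMM scaling and 62.4 CPM with DESeq2 size factors. It differed by 35.9 CPM without the 3 most abundant genes, 129 CPM within set 2 and 4.003 CPM in the replicate block. With each culture left out it ran from -38.6 to 135 CPM, and it changed sign without Dp1Tyb replicate 3. All shifts from 60.8 CPM were smaller than the SD in Dp1Tyb, 309 CPM. Leaving out a culture cannot move a group mean by that much, so the SD sets no limit there.

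Between sets, 20 genes were called, but 464 with DESeq2 (247 up, 217 down), 0 with at least 10 counts in every culture (2205 at an unadjusted p below 0.05) and 2 to 43 with each culture left out. It was 2 without either culture of set 1, 7, 6 and 6 without WT replicates 2 to 4, and 43, 8, 5 and 6 without Dp1Tyb replicates 2 to 5. Members called were 0, and 1 of 31 with DESeq2 (*Cd53*), which called 3.31% of all genes. Leaving out a culture of set 1 leaves that set 1 culture, assumed to vary like the others. The causes were not tested. Depth limits genes such as *Lyz1*, *Clec7a*, *Aif1*, *Fcgr1*, *Spi1*, *Cd52* and *Cybb*, which had few or no counts in the low cultures.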

Other observations

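Some macrophage genes outside the 33 had the same wide range. *Stab1*, a scavenger receptor of tissue macrophages and some endothelium, was at 23.1, 5.25, 9.25 and 23.8 CPM in WT replicates 1 to 4 and at 2.15, 1.11, 57.3, 16.5 and 38.6 CPM in Dp1Tyb replicates 1 to 5. *Ms4a7*, a membrane protein of macrophages, was at 4.56, 2.63, 3.70 and 8.30 CPM in WT and at 0.37, 0.16, 18.1, 4.75 and 9.21 CPM in Dp1Tyb cultures. Both genes were chosen after their values were seen.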
